A study of Homo sapiens with 18 samples.

Results

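Added PHF8 was compared with the parental cells in THP-1, a human monocytic leukaemia line that carries the MLL-AF9 fusion gene. The comparison rests on 8 of the 18 RNA sequencing libraries in the series, chosen by their titles: 4 of the THP-1 derivative labelled PHF8 and 4 of the parental line labelled wt. The series asks how chromatin control of the type I interferon response bears on self-renewal in acute myeloid leukaemia, and its other libraries hold further forms of PHF8. Both groups were kept in DMEM with serum, and their labels name no treatment, no time point and no agent. How PHF8 was introduced, from which promoter, and whether the derivative is a clone or a pool are not stated in the labels, which also do not say if replicates are separate cultures. The p-values below therefore measure the spread between these libraries, which may be technical.

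PHF8 is a histone demethylase. Its PHD finger binds trimethylated lysine 4 on histone H3, a mark of active promoters, and its JmjC domain removes repressive methyl groups from histones, so that it is known as a transcriptional coactivator. It has been studied in neuronal development, where loss of its function is linked to intellectual disability, and in leukaemia.

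Levels are given in CPM, the reads counted over a gene's whole span scaled to the total reads of its library. Differences are PHF8 minus wt on the log2(CPM + 0.5) scale, with the standard error (SE) of the fit, a scale on which low genes, around 1 CPM and under, show less than their full change. The libraries fall into pairs, replicates 1 and 2 and replicates 3 and 4, which were fitted as a block. A gene was called when its adjusted p was below 0.05 over all 13543 genes tested. It is said here to have held when it was also called, in the same direction, within libraries 1 and 2 and again within libraries 3 and 4.

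The wt libraries held 19.4 to 42.3 M reads and the PHF8 libraries 19.7 to 50.3 M. All 8 markers of the line were present, with CSF1R between 113 and 201 CPM and SPI1 between 266 and 390 CPM over the 8 libraries, and their summed level was 1800 to 2300 CPM in wt and 1190 to 1490 CPM in PHF8. The sum did not fall evenly: LYZ, lysozyme, was at 714 to 1040 CPM in wt and 172 to 341 CPM in PHF8, while CD68 was at 221 to 266 CPM in wt and 271 to 322 CPM in PHF8. Markers of T cells (CD3D, CD3E, CD3G) and the erythroid genes HBB and KLF1 stayed below 1 CPM in every one of these libraries. Of the endothelial markers, VWF reached 0.994 CPM and CDH5 and KDR lay below it. KRT18, KRT19 and PF4 were at 0 throughout. Of the B-cell markers, MS4A1 was at 0.0281 CPM or less, and CD79A was at 0.25 to 0.67 CPM in wt and at 0.822 to 1.35 CPM in PHF8. One library stood apart. PHF8 replicate 1 held 13.3 CPM of COL1A1, 10.0 CPM of COL1A2, 7.25 CPM of COL3A1, 0.963 CPM of DCN and 0.507 CPM of LUM, the 5 fibroblast markers. Their summed level was 32.0 CPM in that library and at most 1.40 CPM in any wt library. Collagen and matrix results are therefore given with and without PHF8 replicate 1, and the part of these transcripts in other results was not tested.

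PHF8 RNA (chromosome X, 53936676 to 54048958, hg38) was at 53.4, 49.3, 54.0 and 45.5 CPM in wt libraries 1 to 4. In the PHF8 libraries it was at 2100, 2080, 2010 and 1900 CPM. The difference was 5.31 ± 0.06 (log2 ± SE, adjusted p = 5.7e-11), with 5.33 in libraries 1 and 2 and 5.29 in libraries 3 and 4. Reads from the introduced copy and from the cells' own gene cannot be told apart in these counts.

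In all, 5035 genes were called (37.2% of those tested), 2824 higher in PHF8 (20.9%) and 2211 lower (16.3%). The number that held was 3094 (22.8%), 1877 higher (13.9%) and 1217 lower (8.99%), with a median absolute difference of 0.50 among them. At least 2-fold in each pair were 302 of these (2.23%), 246 higher (1.82%) and 56 lower (0.413%). The excess of rises among called genes leaned on the scaling. Of called genes, 56.1% were higher as reported, 51.5% with TMM scaling and 50.8% with median-ratio scaling. Of genes that held, 60.7% were higher as reported, 55.1% with TMM scaling and 54.6% with median-ratio scaling. The pairs did not give the same result throughout. The effect itself differed between pairs for 4116 genes (30.4%), or for 2340 to 2575 when PHF8 replicate 1, 2 or 4 or wt replicate 1 or 2 was left out, and 598 genes (4.42%) were called in each pair in opposite directions, 206 of them higher in libraries 1 and 2 (1.52%) and the rest higher in libraries 3 and 4 (2.89%). Among the genes that held, the size of the effect differed between pairs for 626 (4.62% of those tested). Across the genes tested the within-pair differences correlated with r = 0.62, a description in which genes are not independent. When each pair was averaged to 1 value per group, a fit that has only 4 values, 1114 genes were called. These included all 302 of the 2-fold genes and 1111 of those that held. Of the genes named below, HOXA7, HEYL, DUSP7, PTGS2, CDKN2C, KMT2D, KMT2B, CBX6, TET2, CTSD, BRK1, CYFIP1, NCKAP1L, RAC1, SOX4, MYB and RET were not called in that fit (adjusted p = 0.057 to 0.42). Without the block for pairs, ENO2, FHL1, MATN2, PFKFB4, PTGS1, CDKN1A, MYB, RAC1 and RET were not called (adjusted p = 0.05 to 0.51).

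**Figure D1:**
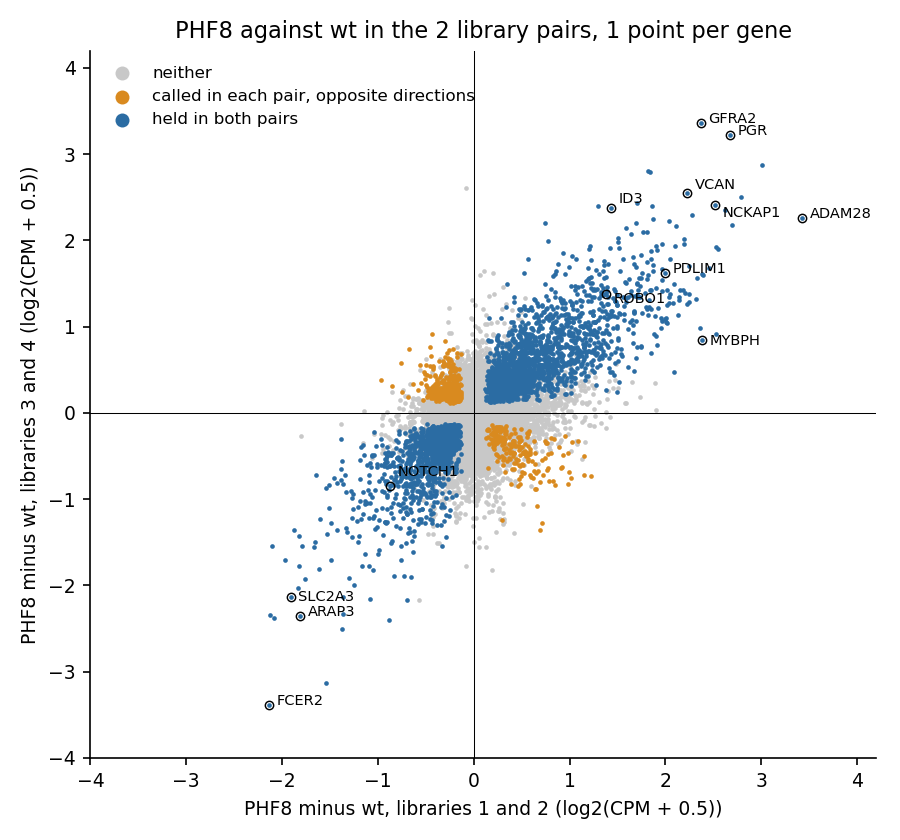
Difference between PHF8 and wt within libraries 1 and 2 (horizontal axis) and within libraries 3 and 4 (vertical axis), log2(CPM + 0.5), 1 point per gene tested; PHF8 itself, at 5.33 and 5.29, lies outside the plotted range. Blue points are the 3094 genes that held, orange points the 598 called in each pair in opposite directions, grey points all others, and circles mark named genes.

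Genes with large rises came mostly from low levels. Of the 246 genes at least 2-fold higher, 70.7% had a wt mean below 5 CPM, against 14.5% of all genes tested, and 47 lay below 1 CPM in every wt library. Those 47 passed the filter on low values only through the PHF8 libraries and so had to differ. Of all genes tested, 110 passed through 1 group only; without them 22.3% of the rest held. Of the 56 genes at least 2-fold lower, 4 lay below 1 CPM in every PHF8 library.

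The largest rises outside the interferon and monocyte genes included receptors, adhesion molecules and cytoskeletal proteins. The largest rises and falls were taken from genes whose groups do not overlap, so that their separation is set by the choice. PVRL3, the adhesion molecule nectin-3, was at 2.35, 1.70, 3.15 and 3.03 CPM in wt libraries 1 to 4 and at 16.9, 16.8, 19.1 and 20.5 CPM in PHF8 libraries 1 to 4. It rose by 2.64 ± 0.11 (adjusted p = 7.7e-07). Its partner in the family, PVRL1 (nectin-1), went the other way. PVRL1 was at 67.7, 65.0, 52.9 and 54.8 CPM in wt and at 21.6, 21.4, 22.2 and 23 CPM in PHF8, a difference of -1.42 ± 0.08 (adjusted p = 3.5e-06). NCKAP1, a subunit of the WAVE complex that switches on actin branching, was at 1.05, 0.927, 1.18 and 1.54 CPM in wt. In PHF8 it stood at 8.66, 7.40, 8.49 and 10.3 CPM, a rise of 2.46 ± 0.12 (adjusted p = 1.4e-06) that was 2.52 in libraries 1 and 2 and 2.41 in libraries 3 and 4.

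EPB41L3, a protein 4.1 family member that ties membrane proteins to the cytoskeleton, rose from 9.56, 8.5, 11 and 10.1 CPM to 38.4, 39.1, 50.9 and 51.7 CPM (2.14 ± 0.07, adjusted p = 1.8e-07). SCRN1 (secernin 1) rose by 2.22 ± 0.13 and TCF24, a basic helix-loop-helix factor, by 2.29 ± 0.11. ENHO, which encodes the secreted peptide adropin, rose by 2.14 ± 0.09. ELOVL6, an elongase of long-chain fatty acids, was at 1.33 to 1.55 CPM in wt and 7.21 to 8.82 CPM in PHF8, a rise of 2.11 ± 0.10. ATP8A1, a phospholipid flippase, rose by 1.96 ± 0.08, with the same 1.96 in each pair. Among more abundant transcripts, VAT1L rose from 29.6 to 31.9 CPM in the 4 wt libraries to 156, 148, 98.9 and 101 CPM in PHF8 libraries 1 to 4. Its rise was 2.25 in libraries 1 and 2 and 1.70 in libraries 3 and 4. MAGEB2, a cancer-testis antigen gene on the X chromosome, rose by 1.38 ± 0.06, and HMGN5, a nucleosome-binding protein, by 1.23 ± 0.07. MYBPH, a myosin-binding protein, showed how far the pairs could differ: it went from 14.9 and 14 to 76.0 and 78.1 CPM in libraries 1 and 2, but from 29.6 and 29.2 to 55.5 and 50.6 CPM in libraries 3 and 4.

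Genes with large falls included membrane proteins of myeloid and immune cells. MS4A3, a membrane protein of granulocyte and monocyte progenitors, was at 79.5, 81.7, 45.4 and 49.5 CPM in wt and at 20.6, 19.9, 13.2 and 15.3 CPM in PHF8 (-1.83 ± 0.08, adjusted p = 8.7e-07). SLC11A1, the phagosomal metal ion transporter NRAMP1, fell from 13.7, 12.7, 23.1 and 20.8 CPM to 3.80, 3.78, 7.47 and 6.90 CPM (-1.61 ± 0.08, adjusted p = 1.7e-06). Libraries 3 and 4 were higher than libraries 1 and 2 in both groups for this gene, yet the falls, -1.67 and -1.55, were of like size. PRLR, the prolactin receptor, fell by 0.83 in libraries 1 and 2 and fell by 1.89 in libraries 3 and 4, and IL31RA, a cytokine receptor chain, had differences of -0.70 and -2.17 in the pairs. Falls were also seen in PRRT4 (-1.62 ± 0.17), the calcium-activated potassium channel KCNN1 (-1.46 ± 0.10), the Src inhibitor SRCIN1 (-1.35 ± 0.12) and the transcription factor DMRT2 (-1.35 ± 0.10). PPP1R27, a regulatory subunit of protein phosphatase 1, was at 420 to 432 CPM in wt and 168 to 187 CPM in PHF8 (-1.25 ± 0.04, adjusted p = 2.6e-07). IGFBP4, which binds insulin-like growth factors, fell by 1.65 in libraries 1 and 2 and fell by 0.72 in libraries 3 and 4.

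**Figure D2:**
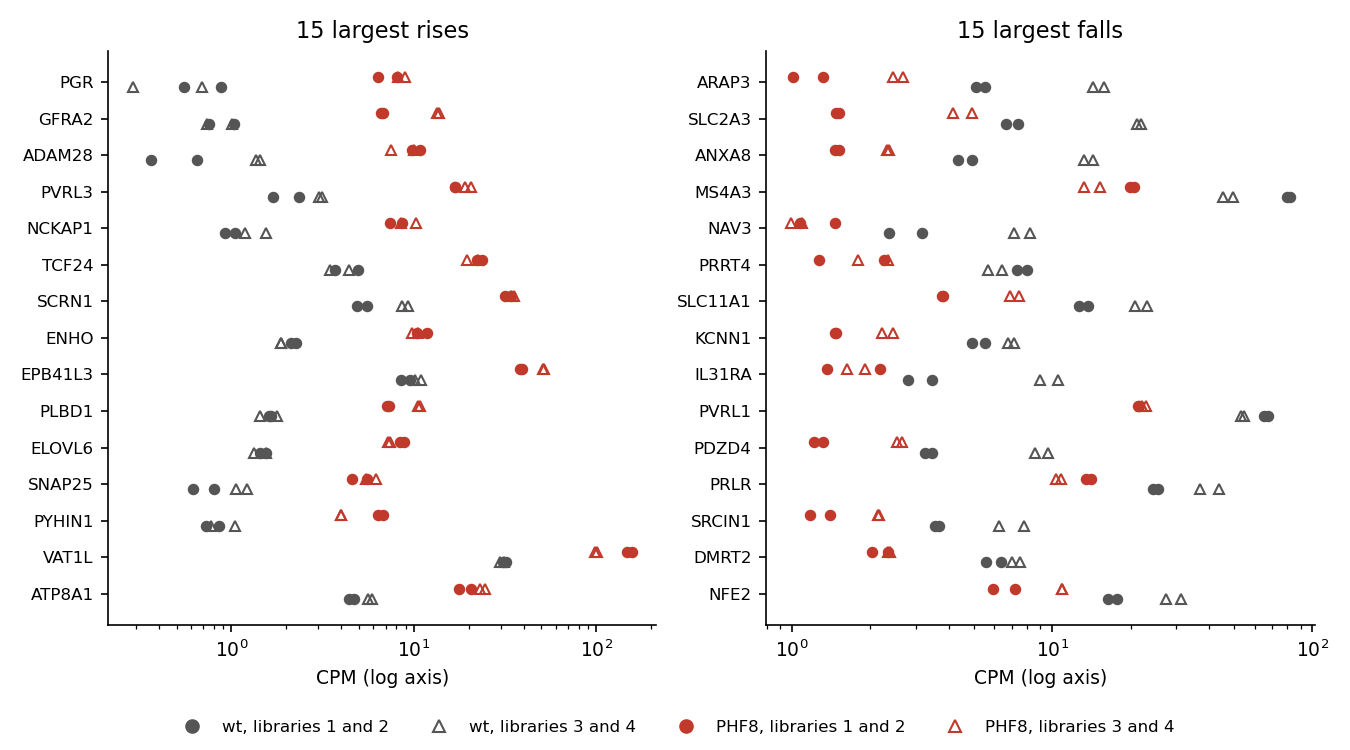
CPM on a log axis for the 15 largest rises (left) and 15 largest falls (right) with 5 CPM or more in the higher group, 1 point per library; circles are libraries 1 and 2, triangles libraries 3 and 4, grey wt and red PHF8. Genes were chosen among those whose groups do not overlap, and PGR passed the filter only through the PHF8 libraries. In ARAP3, SLC2A3 and ANXA8 the 4 libraries of replicates 3 and 4 sit to the right of those of replicates 1 and 2 in the same group.

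Promoters are shown for 4 genes taken from the largest rises and falls with 5 CPM or more. They are not the 4 largest changes. PGR rose more than both rises shown and SLC2A3 fell more than MS4A3, but their promoters are not shown. The sequences come from RefSeq (GRCh38.p14) and run 5′ to 3′ on the gene's strand. Each spans 250 bases before to 50 bases after the annotated start, with each CG dinucleotide in capitals. The deposited gene spans can begin elsewhere. PVRL3 (chr3:111071566-111071865, plus strand) and NCKAP1 (chr2:183038408-183038707, minus strand) are rises, and ARAP3 (chr5:141682181-141682480, minus strand), a GTPase-activating protein, and MS4A3 (chr11:60056415-60056714, plus strand) are falls.
PVRL3: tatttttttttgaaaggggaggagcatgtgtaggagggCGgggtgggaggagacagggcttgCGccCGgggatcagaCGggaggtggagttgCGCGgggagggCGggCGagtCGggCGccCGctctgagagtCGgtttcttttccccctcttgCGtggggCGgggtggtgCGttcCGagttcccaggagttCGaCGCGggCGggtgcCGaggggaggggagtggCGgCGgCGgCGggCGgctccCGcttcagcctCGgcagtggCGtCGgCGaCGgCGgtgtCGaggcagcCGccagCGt
NCKAP1: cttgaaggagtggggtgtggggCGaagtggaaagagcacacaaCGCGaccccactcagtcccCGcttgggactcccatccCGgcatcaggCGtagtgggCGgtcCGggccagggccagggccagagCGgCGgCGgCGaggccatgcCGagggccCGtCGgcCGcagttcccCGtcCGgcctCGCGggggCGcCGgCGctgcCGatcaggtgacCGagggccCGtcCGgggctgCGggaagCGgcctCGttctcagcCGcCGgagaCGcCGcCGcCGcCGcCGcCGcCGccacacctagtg
ARAP3: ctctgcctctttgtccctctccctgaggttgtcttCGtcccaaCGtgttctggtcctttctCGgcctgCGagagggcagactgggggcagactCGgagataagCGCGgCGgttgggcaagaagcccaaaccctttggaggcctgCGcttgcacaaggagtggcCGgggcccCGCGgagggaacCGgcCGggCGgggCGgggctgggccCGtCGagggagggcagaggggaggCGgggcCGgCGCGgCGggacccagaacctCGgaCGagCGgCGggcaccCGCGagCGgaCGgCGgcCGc
MS4A3: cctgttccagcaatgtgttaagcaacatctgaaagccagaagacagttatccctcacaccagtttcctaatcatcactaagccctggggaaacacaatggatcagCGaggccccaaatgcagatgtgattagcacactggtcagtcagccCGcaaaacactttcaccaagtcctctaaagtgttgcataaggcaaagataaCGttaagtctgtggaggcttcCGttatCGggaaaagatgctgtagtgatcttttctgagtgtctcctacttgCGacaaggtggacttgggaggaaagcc
The CG dinucleotide, which reads the same on both strands, occurs 36 times in the PVRL3 window, 40 times in NCKAP1, 33 times in ARAP3 and 6 times in MS4A3. Over the 10883 tested genes with a promoter in the RefSeq table, 99.5% hold at least 1 and the median is 26. Among these 4 genes, both rises and 1 of the falls thus have a CG-dense start. The base composition of all genes that changed 2-fold is not given here, and nothing is concluded about it. Only 78.0% of those higher and 73.2% of those lower have a promoter in the table, under the 80% set as needed. Of all genes tested, 80.4% have one.

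Of 34 actin nucleation genes tested, the WAVE, WASP and Arp2/3 list, 10 held higher and 2 lower (35.3%, beside 22.8% of all genes tested). The other 22 did not hold. The median difference was 0.14 against 0.01 over all genes tested. The WAVE complex is built from one member each of several small families, and its subunits can be read one by one; they were taken for their place in the complex after the values were seen. NCKAP1, given above, rose most. NCKAP1L, its blood-cell counterpart, was already at 316 to 356 CPM in wt and rose by 0.22 ± 0.04 (adjusted p = 0.0026). CYFIP2 went from 11.6 to 13.2 CPM in wt to 31.2, 34.2, 38.1 and 37.6 CPM in PHF8 (1.5 ± 0.08, adjusted p = 2.8e-06), although it overlaps FNDC9 and ADAM19 and shares reads with them. CYFIP1 rose by 0.24 ± 0.04. WASF1 rose from 24.1, 26.0, 31.1 and 30.1 CPM to 50.4, 51.3, 45.6 and 47.1 CPM (0.80 ± 0.09), whereas WASF2 (0.11 ± 0.04, adjusted p = 0.079) and ABI2 (0.15 ± 0.06, adjusted p = 0.095) did not pass the test, although ABI2 did without wt replicate 3 (adjusted p = 0.018). BRK1, the smallest subunit, fell by 0.29 ± 0.05 (adjusted p = 0.0019). RAC1, the GTPase that activates the complex, rose by 0.24 ± 0.04. Outside the complex, the formin FMNL2 rose from 16.8 to 19.8 CPM in wt to 41.2 to 50.5 CPM in PHF8 (1.31 ± 0.08) and the nucleator SPIRE1 by 0.71 ± 0.07.

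Actin-binding and contractile proteins were split. Of 60 tested, 13 held higher and 9 lower (36.7%). ENAH, which extends actin filaments at the leading edge, was at 11.1, 11.3, 11.4 and 13.3 CPM in wt and at 38.0, 35.2, 42.1 and 42.0 CPM in PHF8 (1.70 ± 0.07, adjusted p = 7.4e-07). PDLIM1, a PDZ and LIM protein of actin fibres, rose from 39.8, 42.1, 42.5 and 45.1 CPM to 163, 168, 133 and 139 CPM (1.81 ± 0.08, adjusted p = 9.3e-07). Both rises were seen in each pair. The calponin CNN3 and FHL1 rose by 0.71 ± 0.06 and 0.77 ± 0.08, and tropomyosin TPM2 fell by 1.00 in libraries 1 and 2 and fell by 1.64 in libraries 3 and 4. DOCK4, an exchange factor for Rac, rose from 2.95, 3.30, 5.16 and 3.51 CPM to 13.6, 12.7, 18.0 and 16.4 CPM (1.9 ± 0.11, adjusted p = 4.8e-06), and the exchange factor PREX1 by 0.43 ± 0.04.

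Genes named for the nervous system held at more than the background share. Of 46 synapse and neuronal genes tested, 17 held higher and 7 lower (52.2% against 22.8% of all genes tested), and 11 of those higher were at least 2-fold in each pair. The median was 0.11, with 0.29 in libraries 1 and 2 and -0.01 in libraries 3 and 4. Of the 17, 6 passed the filter only through the PHF8 libraries; without such members, 11 of 40 held higher and 7 lower (45%). SNAP25, a SNARE protein of vesicle fusion, was at 0.801, 0.618, 1.21 and 1.06 CPM in wt and at 5.52, 4.56, 6.22 and 5.47 CPM in PHF8 (2.08 ± 0.12, adjusted p = 4.8e-06). MAP1B, a microtubule-associated protein of growing axons, went from 5.46 to 6.96 CPM in wt to 20.9 to 24.4 CPM in PHF8 (1.78 ± 0.09, adjusted p = 1.7e-06). ENO2, the neuronal enolase, is also a glycolysis gene and overlaps LRRC23. It was at 8.71, 8.35, 55.3 and 53.1 CPM in wt and at 2.33, 1.77, 12.8 and 12.9 CPM in PHF8 (-1.93 ± 0.09, adjusted p = 1.3e-06). The step between library pairs was larger for ENO2 than the step between groups, and the fall, -1.83 and -2.03, appeared within each pair. Without the block for pairs, ENO2 was not called (adjusted p = 0.15).

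Axon guidance genes held in 16 of 46 cases, 11 higher and 5 lower (34.8%). Of the 11, 1 passed the filter only through the PHF8 libraries, and without it 10 of 45 held higher and 5 lower (33.3%). ROBO1, the receptor for Slit ligands, had the smallest SE of the 8 abundant rises named: 39.8, 38.7, 36.4 and 35.9 CPM in wt and 105, 101, 94.3 and 95.3 CPM in PHF8, a rise of 1.38 ± 0.04 (adjusted p = 1.5e-07) with 1.38 in each pair. NEO1, a receptor for netrins and repulsive guidance molecules, rose from 5.36 to 6.5 CPM to 17.9 to 19.7 CPM (1.60 ± 0.08). EPHB1, an ephrin receptor that overlaps KY, rose by 1.30 ± 0.08. SEMA4A, a membrane semaphorin of immune cells, fell from 64.6, 64.4, 67.9 and 65.9 CPM to 27.0, 26.3, 35.7 and 33.8 CPM (-1.10 ± 0.07, adjusted p = 6.7e-06).

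Of 32 cadherin and tight junction genes tested, 10 held higher and 5 lower (46.9%), with a median of 0.22 (0.43 in libraries 1 and 2, 0.12 in libraries 3 and 4). Leaving out 1 that passed the filter only through the PHF8 libraries, 9 of 31 held higher and 5 lower (45.2%). DSC2, a desmosomal cadherin, was at 26.5, 25.6, 20.8 and 22.4 CPM in wt and at 60.2, 60.3, 62.1 and 66.4 CPM in PHF8 (1.37 ± 0.08, adjusted p = 4.2e-06). CDH2, or N-cadherin, rose from 8.26 to 10.0 CPM to 21.4 to 23.8 CPM (1.27 ± 0.08), and the catenin CTNNA1, which overlaps LRRTM2, by 0.69 ± 0.04. CDH23 fell by 1.10 ± 0.07, and it overlaps C10orf105 and C10orf54. Of 36 integrins and immunoglobulin adhesion molecules, 5 held higher and 6 lower (30.6%). Here the fibronectin receptor chain ITGA5 fell from 133, 136, 177 and 170 CPM to 84.5, 84.4, 106 and 106 CPM (-0.69 ± 0.04, adjusted p = 4.8e-06), while ITGAV rose from 29.5 to 34.9 CPM to 49.6 to 61.7 CPM (0.77 ± 0.05, adjusted p = 6.0e-06). The collagen receptor chain ITGA2 rose by 1.03 ± 0.09, and FERMT2, a kindlin that activates integrins, by 1.45 ± 0.13.

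Matrix genes held in 27 of 58 cases, 21 higher and 6 lower (46.6%), with a median of 0.25 (0.47 in libraries 1 and 2, the pair that includes PHF8 replicate 1, and 0.11 in libraries 3 and 4). Without PHF8 replicate 1, the library with collagen transcripts, 20 held higher and 4 lower (41.4%, beside 16.9% of all genes tested in that fit). VCAN, the proteoglycan versican, was at 53.4, 53.3, 158 and 147 CPM in wt and at 258, 245, 957 and 843 CPM in PHF8 (2.39 ± 0.08, adjusted p = 1.5e-07). PHF8 libraries 1 and 2 were similar for VCAN, and the rise was larger in libraries 3 and 4 (2.55) than in libraries 1 and 2 (2.23; adjusted p of the difference = 0.022). SDC2, or syndecan-2, rose from 317, 317, 251 and 274 CPM to 666, 690, 697 and 747 CPM (1.28 ± 0.08, adjusted p = 4.8e-06). GPC4, a glypican, rose by 0.84 ± 0.07 and the matrilin MATN2, which overlaps RPL30, by 1.21 ± 0.09. Metalloproteases held in 21 of 38 cases (55.3%), 11 higher and 10 lower, with a median of -0.00. Without PHF8 replicate 1, 9 of them held higher and 7 lower (42.1%). Of the 11, 3 passed the filter only through the PHF8 libraries. MMP16, a membrane-type protease, was at 0.385 to 0.876 CPM in wt and 3.68 to 3.91 CPM in PHF8, and was 1 of these 3. ADAM22 and ADAMTS17 rose by 1.15 ± 0.09 and 1.33 ± 0.11, and ADAMTS15 fell from 29.1 to 36.9 CPM to 13.7 to 18.2 CPM (-1.07 ± 0.08).

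**Figure D3:**
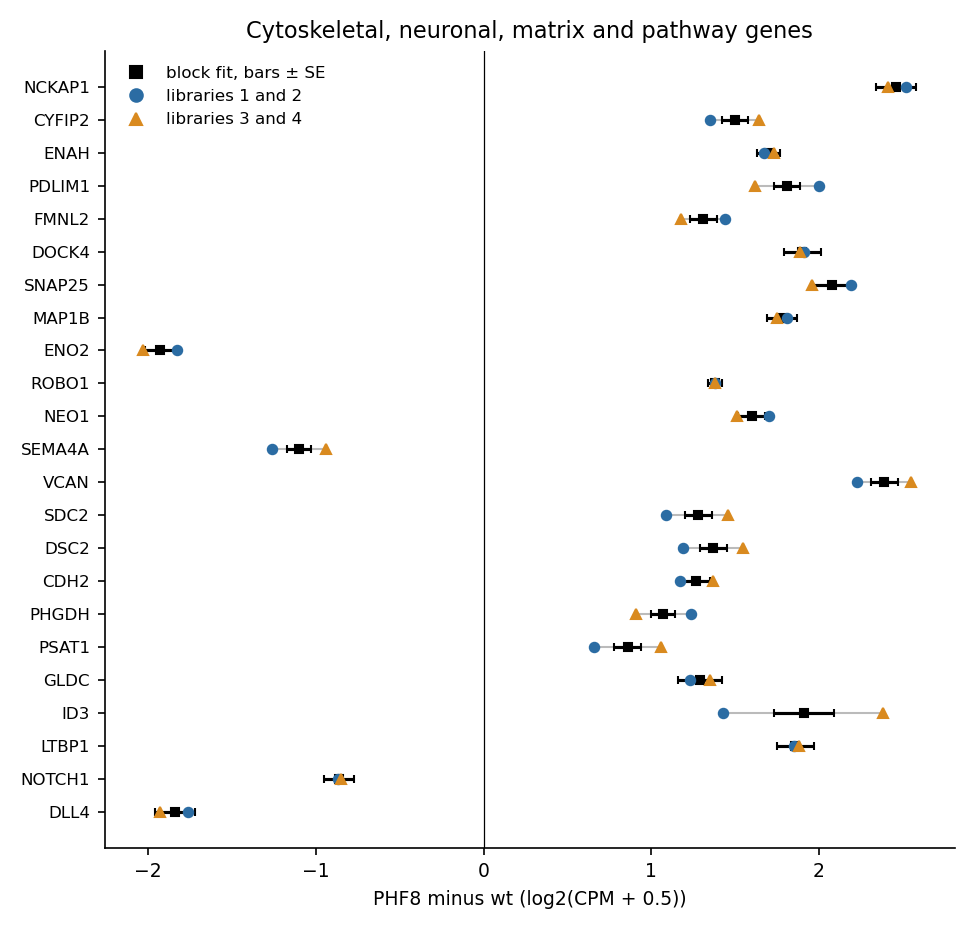
Difference between PHF8 and wt for 23 genes of the cytoskeletal, neuronal, adhesion, matrix and pathway lists, log2(CPM + 0.5); black squares are the block fit with bars of 1 SE, blue circles libraries 1 and 2 and orange triangles libraries 3 and 4. The pairs lie close together for ROBO1 and MAP1B, and apart for ID3, at 1.43 and 2.38.

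In the TGF-beta and BMP pathway, 14 of 43 genes held higher and 4 lower (41.9%), with a median of 0.09 (0.01 in libraries 1 and 2, 0.14 in libraries 3 and 4). Without PHF8 replicate 1, 10 held higher and 3 lower (30.2%, beside 16.9% of all genes tested in that fit). Without PHF8 replicate 2, 12 held in all, beside 2400 of 13543 genes tested in that fit. LTBP1, which stores latent TGF-beta in the matrix, was at 1.10, 1.24, 2.39 and 1.78 CPM in wt and at 5.93, 5.10, 9.34 and 8.53 CPM in PHF8 (1.86 ± 0.11, adjusted p = 5.0e-06). FSTL1, a secreted follistatin-like protein, rose by 1.26 ± 0.08 and the co-receptor TGFBR3 by 1.08 ± 0.10. ID3, an inhibitor of helix-loop-helix factors and a BMP target, rose from 5.41, 4.33, 5.96 and 5.77 CPM to 12.7, 15.1, 32.2 and 33.2 CPM. Its PHF8 libraries 3 and 4 stood above PHF8 libraries 1 and 2, while the wt libraries were close to each other. In the Wnt pathway, 10 of 43 genes held higher and 5 lower (34.9%). The co-receptor LRP5 rose from 47.9, 49.6, 51.9 and 53.5 CPM to 70.7, 72.3, 81.5 and 82.0 CPM (0.59 ± 0.05, adjusted p = 1.8e-05). The receptors FZD7 and FZD4 rose by 0.95 ± 0.09 and 1.17 ± 0.11, and CTNNB1, beta-catenin itself, by 0.43 in each pair, although FZD4 overlaps PRSS23 and CTNNB1 overlaps ULK4.

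Notch pathway genes held 5 higher and 5 lower of 28 (35.7%). Without the 1 that passed the filter only through the wt libraries, 5 of 27 held higher and 4 lower (33.3%). The receptor NOTCH1 fell from 127, 130, 143 and 119 CPM to 65.1, 74.7, 80.6 and 64.6 CPM (-0.86 ± 0.09, adjusted p = 6.5e-05), with -0.87 and -0.85 in the pairs. HEYL, a target of the pathway, fell by 0.51 ± 0.06, and DTX4, a regulator that overlaps MPEG1, rose by 0.74 ± 0.09. Of 24 growth factors, 7 held higher and 5 lower (50%). KITLG, the ligand of the KIT receptor, was at 11.6, 13.2, 5.80 and 5.63 CPM in wt and at 22.8, 22.5, 18.6 and 18.2 CPM in PHF8 (1.23 ± 0.14, adjusted p = 0.00017). HGF rose by 1.30 ± 0.15 and PDGFC by 0.96 ± 0.12. The receptor IGF1R rose by 1.32 in libraries 1 and 2 and by 0.65 in libraries 3 and 4. RET, the kinase with which GFRA2 works, did not hold: it was at 416 to 436 CPM in wt and 340 to 410 CPM in PHF8 (-0.18 ± 0.05, adjusted p = 0.029), with -0.07 and -0.29 in the pairs. Its adjusted p was 0.051 to 0.081 when PHF8 replicate 1, 3 or 4 or wt replicate 1, 3 or 4 was left out.

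Of 31 regulators that feed back on MAP kinase signalling, 9 held higher and 4 lower (41.9%), and 2 of the 9 passed the filter only through the PHF8 libraries. RASGRP2, an exchange factor for Rap and Ras, fell from 164, 158, 160 and 136 CPM to 89.2, 92.9, 91.9 and 80.6 CPM (-0.79 ± 0.06, adjusted p = 2.0e-05). The phosphatases DUSP10 and DUSP16 rose by 0.80 ± 0.07 and 1.09 ± 0.11, and DUSP7 fell by 0.41 ± 0.06. G protein-coupled receptors held in 28 of 69 cases, 15 higher and 13 lower (40.6%). Without the 4 that passed the filter through 1 group only, 13 of 65 held higher and 12 lower (38.5%). S1PR3, a sphingosine-1-phosphate receptor that overlaps C9orf47, fell from 27.0 to 28.6 CPM to 7.80 to 9.04 CPM (-1.67 ± 0.07, adjusted p = 1.0e-06). SPHK1, the kinase that makes its ligand and that overlaps PRPSAP1, fell by 1.58 ± 0.13. The nucleotide receptor P2RY2 fell from 152 to 166 CPM to 73.3 to 86.7 CPM (-1.04 ± 0.06). CNR1, a cannabinoid receptor, rose from 8.91, 8.60, 4.35 and 4.38 CPM to 26.6, 28.1, 21.6 and 20.5 CPM (1.87 ± 0.11, adjusted p = 4.8e-06), and the adhesion receptor ADGRL2 by 0.73 ± 0.04. Ion channels stood near the background share, with 13 of 62 held (21.0%), 4 higher and 9 lower.

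Developmental transcription factors held in 32 of 69 cases, 24 higher and 8 lower (46.4%), with a median of 0.08 (0.16 in libraries 1 and 2, 0.09 in libraries 3 and 4). Of the 24, 1 passed the filter only through the PHF8 libraries, and without it 23 of 68 held higher and 8 lower (45.6%). PAX5, the B-lineage factor, was at 3.10, 3.19, 3.19 and 2.55 CPM in wt and at 11.6, 12.3, 13.7 and 14.1 CPM in PHF8 (1.93 ± 0.10, adjusted p = 3.0e-06). The B-cell marker CD79A, whose ranges in the groups are given above, did not overlap between them, and its part in this result was not tested. FOXO1, a forkhead factor under insulin control, rose from 4.71, 5.93, 6.30 and 6.25 CPM to 20.4, 19.2, 19.1 and 19.6 CPM (1.68 ± 0.09, adjusted p = 3.9e-06). SIX4 rose by 1.44 ± 0.10 and SOX4 by 0.48 ± 0.08. The HOX genes, which MLL fusions keep active, held in 4 of 14 cases, 1 higher and 3 lower (28.6%, beside 22.8% of all genes tested). They held in 2 without PHF8 replicate 1 (14.3%, beside 16.9% of all genes tested in that fit). They also held in 2 without wt replicate 1, where 2346 of 13543 genes held. HOXA9 (0.02 ± 0.05, adjusted p = 0.81) and HOXA10 (0.01 ± 0.05, adjusted p = 0.89) did not pass the test, and HOXA7 fell from 5.00 to 6.46 CPM to 3.04 to 3.50 CPM (-0.68 ± 0.11). HOXA9 and HOXA10 overlap other genes of the table. On the list of MLL-fusion targets and cofactors, 14 of 38 held higher and 5 lower (50%). Leaving out 1 that passed the filter only through the PHF8 libraries, 13 of 37 held higher and 5 lower (48.6%). MEF2C rose from 225, 215, 249 and 249 CPM to 323, 305, 347 and 365 CPM, with 0.51 in each pair (adjusted p = 2.3e-05). LYL1 fell from 49.4, 49.2, 61.3 and 60.1 CPM to 27.0, 27.9, 29.4 and 29.2 CPM (-0.94 ± 0.06, adjusted p = 5.4e-06), and MYB, another regulator of the leukaemic programme, had a difference of -0.30 ± 0.04 (adjusted p = 0.00058, but 0.12 without the block for pairs and 0.13 with pairs averaged). Nuclear receptors stood at the background share: of 27, 6 held higher and 0 lower (22.2%), and without the 2 that passed the filter only through the PHF8 libraries, 4 of 25 (16%). NR1D2, a circadian repressor that overlaps NKIRAS1, rose by 0.95 ± 0.09. The mineralocorticoid receptor NR3C2, 1 of those 2, was at 0.258 to 0.899 CPM in wt and 1.88 to 2.07 CPM in PHF8.

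Among lists of other blood lineages, the erythroid, megakaryocyte and mast cell genes that held were mostly lower. T, B and NK lymphocyte genes held 2 higher and 2 lower of 14 (28.6%, beside 22.8% of all genes tested). Granulocyte genes held 0 higher and 1 lower of 16 (6.2%). Of 17 tested erythroid, megakaryocyte and mast cell genes, 9 held lower and 2 higher (64.7%), and the median was -0.32, with -0.40 in each pair. Of the 2 higher, 1 passed the filter only through the PHF8 libraries, and without it 9 of 16 held lower and 1 higher (62.5%). NFE2, a factor of platelet formation, was at 16.4, 17.8, 27.3 and 31.3 CPM in wt and at 7.20, 5.92, 10.9 and 10.9 CPM in PHF8 (-1.35 ± 0.08, adjusted p = 5.5e-06). PRG2, the eosinophil granule protein, fell by 1.43 ± 0.14, though it overlaps another gene. The defining red-cell markers lay below 1 CPM in every one of these libraries, so the list's tested members are those that a monocytic line also expresses. Of 18 stem and progenitor genes, 4 held higher and 2 lower (33.3%), or 2 and 2 of 16 (25%) without members that passed the filter only through the PHF8 libraries. NPR3, one of these, was at 0.701 to 0.927 CPM in wt and at 1.72, 1.93, 3.5 and 3.03 CPM in PHF8. LMO2 fell from 227, 226, 331 and 323 CPM to 181, 186, 206 and 201 CPM (-0.49 ± 0.07).

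Most groups of chromatin regulators stood near or below the background share. Of 20 histone demethylases, PHF8 included, 4 held higher and 2 lower (30%). Polycomb genes held 4 higher and 5 lower of 37 (24.3%): PHF19, an accessory subunit that binds methylated histone H3, fell from 65.6 to 67.2 CPM to 43.9 to 48.4 CPM (-0.52 ± 0.05, adjusted p = 4.9e-05), and CBX6 fell by 0.44 ± 0.05. Histone methyltransferases and readers held in 7 of 46 cases (15.2%), 4 of those higher. They held in 3 without PHF8 replicate 1 (6.5%, beside 16.9% of all genes tested in that fit). They held in 4 without wt replicate 1 or 2, where 2346 and 2475 of 13543 genes held. L3MBTL3, a reader of methylated lysine, rose from 14.3, 16.7, 19.3 and 18.7 CPM to 31.1, 32.1, 31.4 and 30.8 CPM (0.85 ± 0.08, adjusted p = 5.5e-05), while KMT2D and KMT2B, which methylate histone H3 and overlap other genes, had differences of -0.41 ± 0.08 and -0.35 ± 0.07. SMARCA1, an ISWI remodeller, was at 0.1, 0, 0.166 and 0.337 CPM in wt and at 2.43, 2.92, 2.19 and 2.47 CPM in PHF8. It passed the filter only through the PHF8 libraries and so had to differ. Of the DNA demethylases, TET1 rose by 1.09 ± 0.12 and TET2 fell by 0.56 ± 0.10.

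Metabolic genes held unevenly. Enzymes of serine, glycine and one-carbon metabolism held higher in 8 of 31 cases and lower in 1 (29%), with a median of 0.17 (0.05 in libraries 1 and 2, 0.25 in libraries 3 and 4). PSAT1, the transaminase of serine synthesis, was at 69.8, 65.8, 39.4 and 42.4 CPM in wt and at 110, 106, 83.0 and 88.8 CPM in PHF8 (0.86 ± 0.08, adjusted p = 5.1e-05). GLDC, the glycine decarboxylase, rose by 1.29 ± 0.13 and the mitochondrial ALDH1L2, which overlaps C12orf45, by 0.89 ± 0.10. Without PHF8 replicate 1, 5 of these 31 held higher and 1 lower (19.4%, beside 16.9% of all genes tested in that fit). Amino acid transporters and ATF4-dependent genes held in 14 of 42 cases (33.3%), 10 higher and 4 lower. Without PHF8 replicate 1 they held in 9 (21.4%, beside 16.9% of all genes tested in that fit). The aromatic amino acid transporter SLC16A10 rose from 5.63 to 6.01 CPM to 14.6 to 16.8 CPM (1.35 ± 0.08, adjusted p = 4.0e-06), and the glutamine transporters SLC38A2 and SLC38A1 by 0.62 ± 0.05 and 0.89 ± 0.09. Of 39 glycolysis genes, 4 held higher and 8 lower (30.8%). Without PHF8 replicate 3, 7 held in all, beside 2647 of 13543 genes tested in that fit. SLC2A6, a glucose transporter of the same family as SLC2A3, fell by 0.75 ± 0.07, and PFKFB4, a regulator of glycolysis that overlaps UCN2, went from 27.7, 25.4, 122 and 112 CPM to 19.3, 19.8, 62.0 and 59.2 CPM (-0.69 ± 0.10).

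Of 38 fatty acid oxidation and lipid storage genes, 15 held higher and 2 lower (44.7%) and 21 did not hold. The median was 0.15, with 0.06 in libraries 1 and 2 and 0.15 in libraries 3 and 4. The mitochondrial enzymes HADH and ACAA2 rose by 0.51 ± 0.05 and 0.49 ± 0.05, HADH from 56.2 to 66.0 CPM to 86.8 to 90.0 CPM. CD36, a fatty acid transporter and scavenger receptor, rose by 0.86 in libraries 1 and 2 and by 1.64 in libraries 3 and 4, and overlaps GNAT3. Sterol and fatty acid synthesis, by contrast, held in 6 of 40 cases (15%), and 7 of its genes were called in opposite directions in the pairs. Eicosanoid synthesis genes held higher in 6 of 21 cases and lower in 0 (28.6%). ALOX5, which makes leukotrienes, rose from 39.1, 36.2, 50.6 and 45.5 CPM to 63.3, 60.8, 93.5 and 84.5 CPM (0.80 ± 0.06, adjusted p = 2.0e-05), and the phospholipase PLA2G4A, which frees arachidonic acid, by 0.82 ± 0.10. The cyclooxygenases PTGS1 and PTGS2 rose by 0.58 ± 0.07 and 0.81 ± 0.13. Of 44 antioxidant and NRF2-dependent genes, 13 held higher and 2 lower (34.1%), with a median of 0.12. NQO1, a quinone reductase, rose from 33.7 to 42.0 CPM to 64.7 to 75.9 CPM (0.83 ± 0.08, adjusted p = 7.3e-05) and GCLM, of glutathione synthesis, by 0.56 ± 0.05. Glycan and sphingolipid enzymes held in 28 of 69 cases (40.6%), 17 higher and 11 lower, among them the sulphotransferase CHST12 (-1.12 ± 0.07) and the branching enzyme MGAT4A (1.05 ± 0.08).

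Cell cycle lists stood below or near the background share of 22.8%, apart from the cyclin list. DNA replication genes held higher in 8 of 55 cases and lower in 0 (14.5%), with PRIM2 at 0.51 ± 0.05 and MCM5 at 0.43 ± 0.04. Mitosis genes held higher in 13 of 59 and lower in 2 (25.4%). These counts fell when some single libraries were left out, and so did the count over all genes tested. Of 13543 genes, 3094 held with all 8 libraries, 2346 without wt replicate 1 and 2475 without wt replicate 2. The count over all genes was 2290, 2400, 2647 and 2543 without PHF8 replicates 1, 2, 3 and 4 in turn. Without PHF8 replicate 1, 7.3% of replication genes and 11.9% of mitosis genes held, beside 16.9% of all genes tested. Replication genes held in 4 cases without PHF8 replicate 1, wt replicate 1 or wt replicate 2, and in 5 without PHF8 replicate 2 or 3. Mitosis genes held in 7 cases without PHF8 replicate 1, in 8 without PHF8 replicate 4, and in 9 without PHF8 replicate 2, wt replicate 1 or wt replicate 2. TK1, the S-phase thymidine kinase, rose from 177, 177, 200 and 217 CPM to 280, 297, 306 and 302 CPM (0.62 ± 0.05, adjusted p = 2.1e-05). Of 40 cyclins, CDK inhibitors and E2F genes, 9 held higher and 4 lower (32.5%), with a median of -0.00. CDKN1A, the p53 target p21, chosen here after its values were seen, was at 16.8, 14.6, 56.1 and 55.6 CPM in wt and at 44.7, 43.3, 73.2 and 78.8 CPM in PHF8 (0.95 ± 0.18, adjusted p = 0.0025). CDKN1A overlapped between groups when the pairs were pooled, since wt libraries 3 and 4 lay above PHF8 libraries 1 and 2. CDKN1C, at 0.464 to 0.994 CPM in wt and 1.77 to 3.34 CPM in PHF8, passed the filter only through the PHF8 libraries. CDKN2C rose by 0.38 ± 0.04 and RB1, which overlaps LPAR6, by 0.46 ± 0.05, whereas MYCL fell from 21.1 to 33.9 CPM to 11.1 to 14.1 CPM (-1.03 ± 0.10). Of 54 genes of the BCL2 family, caspases and death receptors, 10 held higher and 4 lower (25.9%, near the background share). Without PHF8 replicate 1, 9 held in all (16.7%, beside 16.9% of all genes tested in that fit). The caspase CASP6, which overlaps CCDC109B, rose by 0.78 ± 0.09. Autophagy and lysosome genes held in 30 of 77 cases, 17 higher and 13 lower (39%). Cathepsin L (CTSL) rose by 0.52 ± 0.05, and cathepsin D (CTSD) and the sulphatase IDS, which both overlap another gene, had differences of -0.37 ± 0.04 and -0.68 ± 0.08.

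With all 8 libraries in the fit, several housekeeping groups held at less than the background share, and some went opposite ways in the pairs. Of 56 ribosome biogenesis genes, 2 held higher and 1 lower (5.4%), while the effect differed between pairs for 45 and 15 were called in opposite directions. Their median was -0.19 in libraries 1 and 2 and 0.24 in libraries 3 and 4. Heat shock and chaperonin genes had medians of -0.08 and 0.32 in the pairs, and the effect differed for 24 of 31. Proteasome genes had medians of -0.08 and 0.18, and the effect differed for 22 of 34. Cytosolic ribosomal proteins held in 3 of 75 cases but differed between pairs in only 3, with a median of 0.04. Splicing factors held in 7 of 77 cases. Single libraries moved these small counts. Without wt replicate 4, 19 of the 75 ribosomal proteins held, near the share of all genes tested in that fit (3246 of 13543). Ribosomal proteins held in 0 cases without wt replicate 2 and in 1 without PHF8 replicate 1, PHF8 replicate 2 or wt replicate 1. In these 4 fits 2290 to 2475 of all genes tested held, and over all fits without 1 library 2290 to 3274. Ribosome biogenesis genes held in 5 cases without wt replicate 3 and in 1 without PHF8 replicate 3 or 4, and splicing factors in 3 without PHF8 replicate 1 and in 4 without PHF8 replicate 2 or wt replicate 1. In these groups the pair of libraries and the added PHF8 cannot be told apart as the source of a difference that is seen in 1 pair alone.

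**Figure D4:**
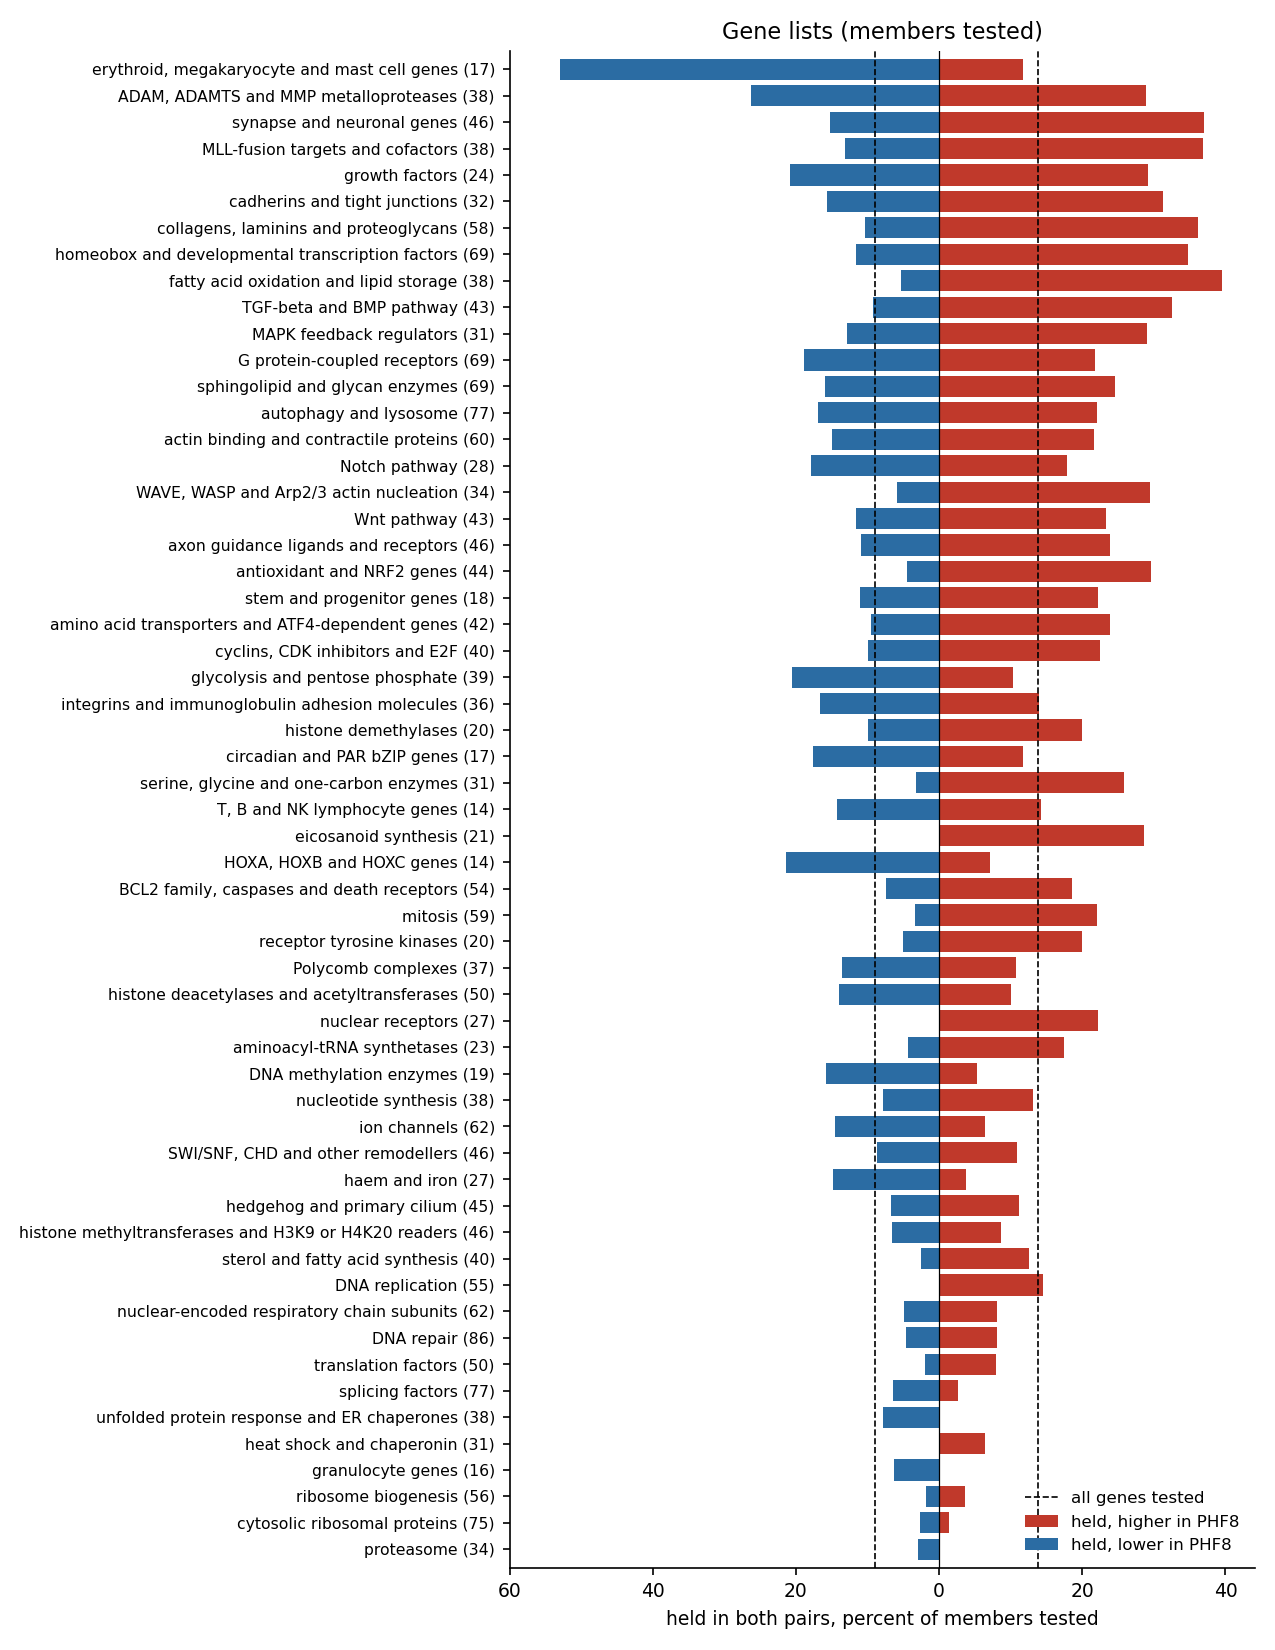
Percent of the tested members of each gene list that held in both pairs, higher in PHF8 to the right (red) and lower to the left (blue), for most lists with 14 or more members tested, whose number is in brackets. Dashed lines mark all genes tested, 13.9% higher and 8.99% lower. Proteasome and ribosomal protein genes lie at the bottom, and erythroid, metalloprotease and neuronal genes at the top.

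Long genes and some chromosomes held more of the rises. Genes were split into 5 equal groups by span. In the longest, 99.2 to 2305 kb, 24.1% of genes held higher and 6.3% lower, whereas in the shortest, up to 10.9 kb, 8.5% held higher and 11.2% lower. Of the 246 genes at least 2-fold higher, 115 lay in the longest group and 29 in the shortest. The median span was 60.1 kb for genes that held higher, 27.5 kb for those that held lower and 33.5 kb for all tested. Reads were counted over the whole span, introns included, and the part of intron reads in this was not tested. By chromosome, the share that held higher was largest on chromosomes 4 (26.2%), 13 (24.5%) and 5 (22.2%), and smallest on 17 (5.3%), 16 (6.3%) and 22 (6.8%). The X chromosome, which carries PHF8, had 18.9% higher and 7.0% lower of 455 genes. Level went with the share too: in the lowest of 5 equal groups by mean level, 19.6% held higher and 5.0% lower, and in the highest 11.1% and 11.3%. Chromosome, span and level were described one at a time, and their separate parts were not tested.

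**Figure D5:**
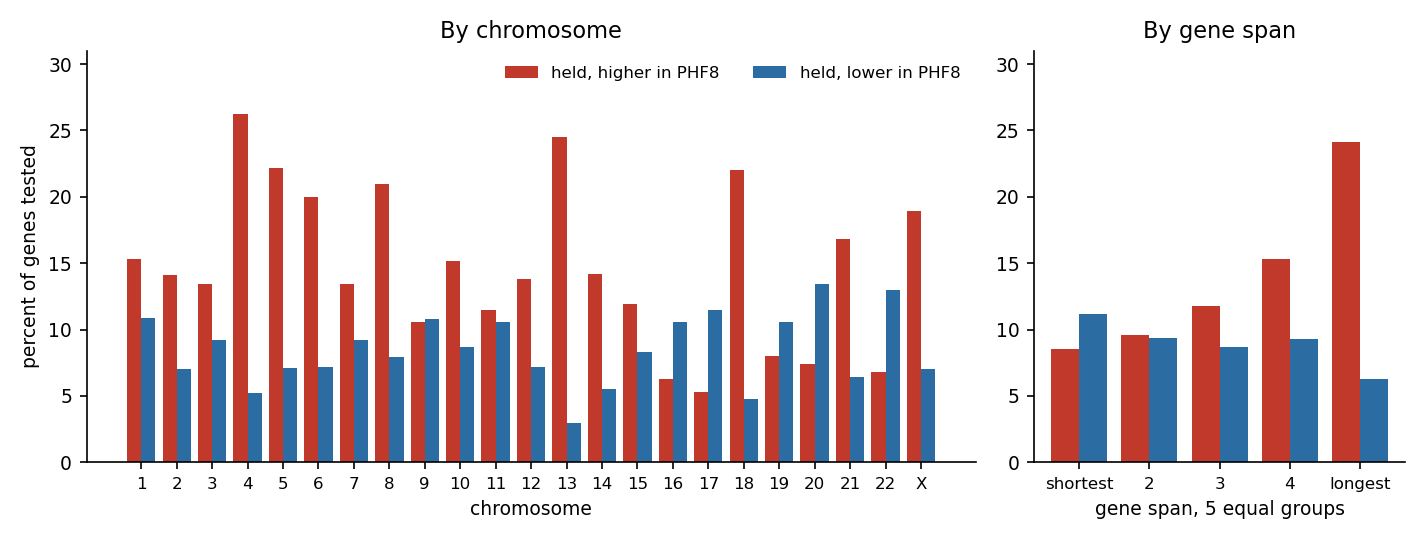
Percent of genes tested that held higher (red) or lower (blue) in PHF8, by chromosome (left) and by gene span in 5 equal groups (right). Chromosomes 4, 13 and 5 and the longest genes have the tallest red bars, and on chromosomes 9, 16, 17, 19, 20 and 22 more genes held lower than higher.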

How the data were processed

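RNA was measured in 4 wt and 4 PHF8 libraries, placed in their groups by title; 0 samples were left unassigned. Per the labels' protocols, RNA was isolated on RNeasy columns, poly(A)-selected, prepared with NEBNext Ultra II kits and sequenced on an Illumina NextSeq. The authors deposited RPKM values for 19784 genes with hg38 coordinates; STAR 2.7.0c, SAMtools 1.9 and DESeq2 were used, per the submitters' processing notes. For the counting tool and annotation, nothing is given in the sources used here. Times the gene span, the deposited RPKM values of all 8 libraries were whole reads within 0.001, and in 100% of 14653 tests on nested genes the inner gene never had more reads than the outer, so reads were counted over whole spans, without regard to strand, in each of 6569 overlapping genes.

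CPM was computed as RPKM times the span in kilobases. Genes with at least 1 CPM in at least 4 of the 8 libraries (13543) were fitted with limma 3.58.1 (R 4.3.3, data.table version 1.17.8) on log2(CPM + 0.5), letting the prior variance follow the mean level, with the library pair as a block; a second fit with 1 mean per group and pair gave the within-pair differences and their difference. p-values were adjusted by Benjamini-Hochberg over all genes tested. The fit was tested on simulated data. Same-numbered libraries deviated together from their group means (r = 0.52, 0.50, 0.68 and 0.49 for numbers 1 to 4), and so did libraries of 1 pair with different numbers (r = 0.24 to 0.58). The deviations thus mark the library pair, which is the block, more than the number, which was blocked as an alternative.

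The genes and the 61 lists, 2 of them interferon and monocyte lists set aside as context, were chosen with earlier results of these data known. Named were PHF8; the 15 largest rises and falls with 5 CPM or more and the 8 largest with 50 CPM or more, among genes that held, whose groups did not overlap, that overlap no other gene and that are on neither context list; and the 4 members of each list that held with the smallest p. NCKAP1L, CYFIP1, WASF1, WASF2, ABI2, BRK1, RAC1, RET, HOXA9, HOXA10, SOX4, MYB and CDKN1A were chosen after their values were seen. Genes overlapping another share its reads and are uncertain. Alternatives changed the block, pseudocount, filter, scaling, genes and libraries; the list counts without single libraries and without genes that passed the filter through 1 group only were added after seeing the data. Some items are not reported here.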

Additional observations from a re-analysis of the deposited data

Results flagged for a closer look

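Of 302 groups of 4 libraries checked, for the genes named in the text that passed the filter on low values, 5 had 1 library set apart from the other 3 beyond Dixon's 95% limit for the gap over the range; chance alone gives such a gap in about 1 in 20 groups. COL1A1 was at 13.3 CPM in PHF8 replicate 1 and at 1.12 to 1.69 CPM in the other PHF8 libraries, beside the other fibroblast transcripts described above. CDKN2C was at 235 CPM in wt replicate 4 and at 213 to 215 CPM in the other wt libraries. ENAH was at 13.3 CPM in wt replicate 4, against 11.1 to 11.4 CPM. PAX5 was at 2.55 CPM in wt replicate 4, against 3.10 to 3.19 CPM. DMRT2 was at 2.03 CPM in PHF8 replicate 1, against 2.34 to 2.39 CPM. Apart from COL1A1, these gaps were small beside the difference between PHF8 and wt for the same gene, and each of the other 4 genes kept its call without that library.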

How the results depend on the processing

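The treatment of library pairs bears on the count of genes called, since holding in both pairs is tested within each. With no replicate block, 2637 genes were called, 1639 higher and 998 lower; with replicate numbers 1 to 4 as the block, 4014 were called. With each pair averaged, 1114 were called, 769 higher and 345 lower, in a fit with few degrees of freedom. Of 264 named genes, 34 lost their call without the block, among them ENO2, FHL1, MATN2, PFKFB4, PTGS1, CDKN1A, MYB and RAC1, and 81 lost it with pairs averaged, among them HOXA7, CBX6, TET2, DUSP7, HEYL and MYB. The block by number ended 1 call, that of RET (adjusted p = 0.064). With at least 5 CPM required, 185 genes were 2-fold in both pairs, 146 higher; voom gave 398, against 302. Over genes that overlap no other, a smaller set, 1962 were called higher and 1414 lower, 1323 held higher and 791 lower, and 2614 differed between pairs. At 2-fold, 203 of them were higher and 34 lower, beside 246 and 56 over all genes tested. The 2-fold falls thus dropped by a larger share than the 2-fold rises, and the part of shared reads in this was not tested.

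Leaving out each library in turn, with a lone library assumed to vary like the others, gave 4008 to 4963 genes called, 2290 to 3274 held, 285 to 307 at 2-fold and 2340 to 5578 that differed between pairs. HOXA10 and HOXA9, not called, changed sign and ranged from -0.02 to 0.03 and from -0.02 to 0.05 without 1 library: HOXA10 was at -0.01 with TMM and with median-ratio scaling and without PHF8 replicate 2, -0.02 without wt replicate 1 and -0.05 in libraries 3 and 4, and HOXA9 at -0.00 with median-ratio scaling and at -0.01, -0.02 and -0.09 in the last 3 of these. Other pseudocounts, TMM and median-ratio scaling, no filter, the 4 F279S libraries in the fit and voom on recovered reads kept every other named call. The scalings moved the median of all genes from 0.01 to -0.01 and brought the counts of genes called higher and lower closer together. With TMM scaling 2643 were called higher and 2492 lower, and with median-ratio scaling 2600 and 2523. MEOX2 and SMARCA1, tested only through the PHF8 libraries, had differences of 3.85 and 4.27 with voom, beside 2.48 and 2.23. With 19.4 M reads in the smallest library, genes near 1 CPM rest on few reads, and intervals from 8 libraries cover only their spread. Whether replicates are separate cultures is not known, and PHF8 replicate 1 carries collagen reads.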
